A study of Mus musculus with 8 samples.

Results

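The proteasome genes of the mouse hypothalamus were taken as every gene whose symbol begins with Psma to Psmg followed by a digit and whose probe was detected (detection p-value under 0.05) on at least 2 of 8 arrays. Of 45 genes with such a name, 43 had a detected probe, among 10703 genes measured in all. Psma1 and Psma6, 2 subunits of the outer ring, had a probe but were not detected on any array, and 5 further genes of the complex (Psma8, Psmb11, Psmd3, Psmf1 and Psmg4) had no probe. Not being detected does not show that a transcript was absent. The probes of the abundant neuronal genes Nefl and Snap25 were not detected on 2 or more arrays either. 41 of the 43 genes encode proteasome subunits, activators or assembly factors, and 5 of these (Psmb8, Psmb9, Psmb10, Psme1 and Psme2) are the interferon-induced genes of the immunoproteasome. The other 2, Psmc3ip and Psme3ip1, match by name only: they encode binding partners of proteasome proteins and not parts of the complex.

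The study asked which hypothalamic transcripts respond to streptozotocin (STZ), a toxin of pancreatic beta cells that produces insulin-deficient diabetes, and which of these respond to leptin acting in the brain. The arrays held RNA of hypothalamic blocks of male mice of mixed strain, 12 to 15 weeks old. There were 3 arrays of STZ-treated mice with a continuous central leptin infusion (replicates 6, 7 and 8), 3 arrays of STZ-treated mice without leptin (replicates 1, 2 and 3) and 2 arrays of saline controls (replicates 4 and 5). The labels name no saline infusion for the STZ mice, do not give a dose or duration of leptin, and do not say whether each array came from a separate animal, so p-values reflect the spread among these arrays alone, which may be technical.

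Between 13608 and 14776 of 25697 probes were detected per array, and the number of arrays limits the precision. STZ replicate 3 carries the number of another STZ replicate in its description, and its title and source place it with STZ. STZ replicate 1 stood apart from its group: its correlations were 0.969 and 0.979 with STZ replicates 2 and 3, against 0.989 between those. Outside its group its correlations were highest with leptin replicate 8 (0.972) and saline replicate 4 (0.971). STZ replicate 2 alone had a high mean level of 5 pituitary genes (13.24, against 5.64 and 6.18 in the other STZ arrays). The mean of 5 choroid plexus genes was 6.94 in STZ replicate 1, against 10.33 and 9.97 in STZ replicates 2 and 3. Where leaving out either of these 2 arrays changed the call of a named proteasome, list or neighbour gene, the value without it is given. The labelled tissue carried its marker peptides, with 9 of 11 listed hypothalamic genes measured, among them Pmch, Hcrt and Oxt.

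The proteasome degrades proteins tagged with ubiquitin. Its 20S core is a barrel of alpha and beta rings, in which Psmb5, Psmb6 and Psmb7 carry the active sites, and a 19S cap with a ring of ATPases recognizes, unfolds and feeds in the substrate. Interferon induces Psmb8, Psmb9 and Psmb10, which take the places of Psmb5, Psmb6 and Psmb7 in newly built cores and change the peptides produced, as well as Psme1 and Psme2, which form the PA28 activator. Those peptides are then carried by the Tap1 and Tap2 transporter to MHC class I molecules. All levels below are background-corrected, quantile-normalized log2 intensities of 1 probe per gene, the one of highest mean signal, and levels of different probes are not comparable with each other. Differences are given with the standard error of limma's moderated linear model, and a gene passed at an adjusted p under 0.05 over all 15494 kept probes.

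Of the 3 interferon-induced catalytic subunits, Psmb8 and Psmb9 were the members that changed most between STZ and saline. Psmb8, which replaces Psmb5, stood at 6.81, 6.42 and 6.80 in STZ with leptin, at 8.52, 9.47 and 9.29 in STZ, and at 5.86 and 5.81 in saline. The 3 groups did not overlap, the STZ arrays being highest and the saline arrays lowest. Psmb8 was 3.26 ± 0.27 log2 units higher in STZ than in saline, or 9.58-fold, with a limma adjusted p of 0.000163 (n = 3 and 2). In STZ with leptin it fell by 2.42 ± 0.24 log2 units against STZ, or 5.35-fold (limma adjusted p = 0.000674, n = 3 each). The difference of STZ with leptin from saline was 0.84 ± 0.27 and did not pass (limma adjusted p = 0.228).

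Psmb9, which replaces Psmb6, had the highest difference of all members in STZ against saline. It stood at 9.22, 8.23 and 8.94 in STZ with leptin, at 10.69, 11.80 and 11.56 in STZ, and at 7.06 and 7.19 in saline. Again no array of one group lay within the range of another. Its level in STZ was 4.23 ± 0.36 log2 units above that in saline, or 18.7-fold (limma adjusted p = 0.000193). With leptin it fell by 2.55 ± 0.32 log2 units against STZ, or 5.88-fold (limma adjusted p = 0.00217). Its level with leptin was 1.67 ± 0.36 above saline, which missed the threshold (limma adjusted p = 0.0555). Leaving out leptin replicate 7, the lowest of its group, gave 1.95 for this last difference, with a limma adjusted p of 0.0238. Without STZ replicate 1, which belongs to neither group of this comparison and enters only through the normalization, the probe filter and the shared variance, both Psmb8 (0.84, limma adjusted p = 0.0361) and Psmb9 (1.68, limma adjusted p = 0.0197) passed as higher with leptin than in saline.

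Psmb10, the replacement of Psmb7, had smaller differences, which did not pass. Its level was 11.69, 11.77 and 11.39 in STZ with leptin, 11.78, 12.76 and 12.41 in STZ, and 11.21 and 11.30 in saline. STZ replicate 1 lay just above the highest leptin array, while both saline arrays were below all others. The difference of STZ from saline was 1.06 ± 0.26 (limma adjusted p = 0.0645) and that of STZ with leptin from STZ was -0.70 ± 0.23 (limma adjusted p = 0.139). A second Psmb10 probe gave 1.10 for STZ minus saline and passed (limma adjusted p = 0.035), and without STZ replicate 1 the first probe passed in both comparisons, at 1.34 (limma adjusted p = 0.00385) and -0.97 (limma adjusted p = 0.0123).

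The 5' windows of Psmb8 and Psmb9 are shown because these genes lie on either side of Tap1 and carry the largest differences among the members. They are RefSeq windows of mouse build GRCm38.p6, running from 250 bases before to 50 bases after the gene start, written 5' to 3' on the strand of the gene. The Psmb8 window is chr17:34197945-34198244 on the plus strand, and its capitals mark a match to the gamma-activated site TTCNNNGAA, the sequence that STAT dimers bind. The Psmb9 window is chr17:34187281-34187580 on the minus strand and held none of the motifs searched. Psmb9 and Tap1 start 226 bases apart on opposite strands, so that 275 bases of their windows are the same DNA.
Psmb8: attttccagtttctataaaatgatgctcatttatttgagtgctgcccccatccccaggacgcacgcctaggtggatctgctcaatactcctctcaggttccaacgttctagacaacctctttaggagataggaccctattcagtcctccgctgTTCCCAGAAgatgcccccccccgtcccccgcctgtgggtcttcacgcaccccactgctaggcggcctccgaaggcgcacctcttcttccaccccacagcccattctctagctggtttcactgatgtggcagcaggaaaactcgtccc
Psmb9: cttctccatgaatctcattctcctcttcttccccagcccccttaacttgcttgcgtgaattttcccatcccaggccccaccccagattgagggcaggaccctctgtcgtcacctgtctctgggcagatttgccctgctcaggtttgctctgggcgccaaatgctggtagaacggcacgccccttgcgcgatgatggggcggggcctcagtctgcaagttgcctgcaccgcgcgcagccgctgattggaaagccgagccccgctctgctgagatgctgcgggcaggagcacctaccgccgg

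Of the 2 PA28 activator genes, Psme1 passed in STZ against saline. It stood at 11.55, 11.41 and 11.49 in STZ with leptin, at 11.73, 12.39 and 12.29 in STZ, and at 11.06 and 11.23 in saline. All STZ arrays were above all leptin arrays, and both saline arrays were below them. Psme1 was 1.00 ± 0.20 higher in STZ than in saline on the log2 scale, or 1.99-fold (limma adjusted p = 0.0264), and its second probe gave 1.15 (limma adjusted p = 0.0455). The difference of STZ with leptin from STZ was -0.65 ± 0.18 (limma adjusted p = 0.079), and it passed without STZ replicate 1 (-0.87, limma adjusted p = 0.00552). The call for STZ against saline was lost without STZ replicate 2 (0.87, limma adjusted p = 0.0769), STZ replicate 3 (0.92, limma adjusted p = 0.104), saline replicate 4 (0.91, limma adjusted p = 0.245) or saline replicate 5 (1.08, limma adjusted p = 0.136).

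Psme2, the partner of Psme1 in PA28, had 8.46, 8.35 and 8.41 in STZ with leptin, 8.28, 9.14 and 9.27 in STZ, and 8.64 and 8.68 in saline. STZ replicate 1 was the lowest of all 8 arrays and the other STZ arrays the highest. Its differences were 0.24 ± 0.27 for STZ minus saline (limma adjusted p = 0.75) and -0.49 ± 0.24 for STZ with leptin minus STZ (limma adjusted p = 0.306). Without STZ replicate 1 they were 0.55 (limma adjusted p = 0.0462) and -0.80 (limma adjusted p = 0.00621). The Psme1 window, chr14:55578244-55578543 on the plus strand, is shown with its match to the interferon-stimulated response element in capitals. That motif, bound by the interferon regulatory factors, was searched as GAAA repeated after 2 free bases, and in Psme1 it reads on the opposite strand.
Psme1: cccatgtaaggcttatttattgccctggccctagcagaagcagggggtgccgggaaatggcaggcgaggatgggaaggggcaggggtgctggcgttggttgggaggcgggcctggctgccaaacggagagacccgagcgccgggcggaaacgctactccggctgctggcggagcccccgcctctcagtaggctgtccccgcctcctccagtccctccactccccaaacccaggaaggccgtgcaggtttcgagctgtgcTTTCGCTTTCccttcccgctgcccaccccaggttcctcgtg

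**Figure D1:**
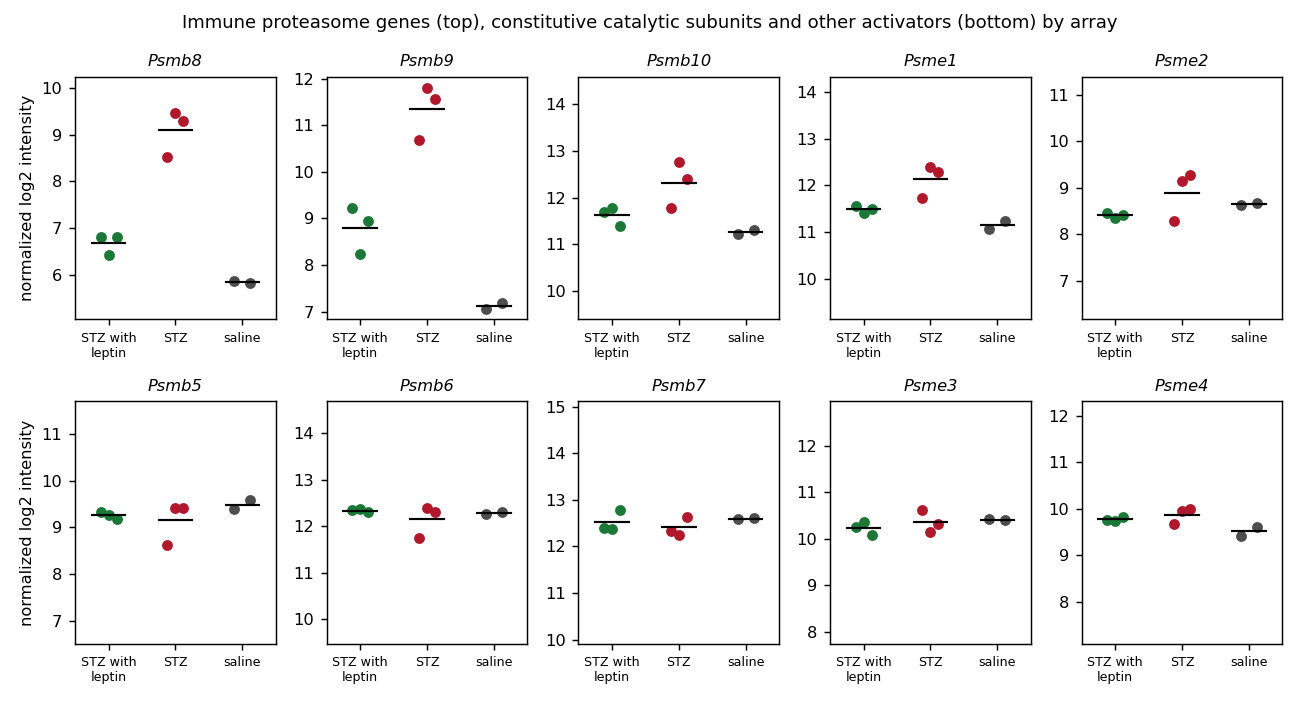
Normalized log2 intensity of the 5 interferon-induced genes (top) and of the constitutive catalytic subunits and other activators (bottom) by array. Points are arrays, bars are group means, and all panels span the same number of log2 units. Psmb8 reached 8.52 to 9.47 in STZ, against 5.81 to 5.86 in saline, while STZ replicate 1 was the lowest STZ array for Psmb5 and Psmb6.

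Counted together, 3 of the 5 interferon-induced genes rose in STZ against saline (Psmb8, Psmb9 and Psme1), and 2 fell in STZ with leptin against STZ (Psmb8 and Psmb9). Over all 10703 genes, 4.36 percent passed as higher in STZ than in saline and 3.71 percent as lower in STZ with leptin than in STZ. None of the 5 passed in STZ with leptin against saline, where 1.72 percent of all genes were higher. Their median differences were 1.06, -0.70 and 0.36 in the 3 comparisons, beside -0.08, 0.03 and -0.03 over all genes. Both the first and the second comparison use the 3 STZ arrays. Without STZ replicate 1, all 5 passed as higher in STZ than in saline and all 5 as lower in STZ with leptin than in STZ. Calls also became more frequent over all probes in that fit. As higher in STZ than in saline 869 of 15331 probes passed, against 616 of 15494 with all arrays. As lower with leptin than in STZ 827 passed, against 535. Without STZ replicate 2, Psmb8 (3.09 and -2.24) and Psmb9 (4.02 and -2.34) still passed in both comparisons.

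Levels of cell type markers were set beside these genes. The mean level of 7 measured microglia and macrophage genes was 9.33 to 9.56 in STZ with leptin, 9.64 to 10.26 in STZ and 7.82 to 8.05 in saline, and 4 of the 7 rose in STZ against saline. With leptin 1 of the 7 fell against STZ, and 4 were higher than in saline. The mean of 5 genes listed for T cells was 7.28 to 7.94 with leptin, 7.36 to 8.40 in STZ and 6.68 to 6.83 in saline. They were Cd3d, Cd3e, Cd3g, Cd8b1 and Thy1, and Thy1 is expressed by neurons too, so the mean is not of T cells alone. Of these 5, 2 were higher in STZ than in saline and none was lower with leptin than in STZ. Cd4 and Cd8a were not detected, which for these markers means that no probe was detected on 2 or more arrays. The mean of 2 measured B cell genes was 5.70 to 6.18 in STZ with leptin, 5.53 to 5.71 in STZ and 4.62 to 4.86 in saline. Of these 2, 1 was higher in STZ than in saline and 1 was higher with leptin than in saline, and Ms4a1 and Jchain were not detected. No neutrophil gene passed, but the mean of 3 was 5.24 to 5.65 with leptin, 5.38 to 9.24 in STZ and 4.67 to 4.85 in saline. Of 5 astrocyte genes 1 was higher in STZ than in saline and 1 fell with leptin against STZ. The mean of 3 neuron genes was 11.71 to 11.87 with leptin, 11.51 to 11.62 in STZ and 11.91 to 11.92 in saline. These ranges did not overlap, no neuron gene passed in any comparison, and Nefl and Snap25 were not detected. The mean of the 5 choroid plexus genes was 7.01 to 7.64 with leptin, 6.94 to 10.33 in STZ and 8.98 to 10.37 in saline, and none of them passed. The part of these cells in the result was not tested. In RNA of whole tissue, more or fewer cells of a type and more or less RNA per cell cannot be told apart.

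The constitutive catalytic subunits, which the interferon-induced ones replace, did not pass in any comparison. Psmb5 had 9.33, 9.26 and 9.19 in STZ with leptin, 8.63, 9.43 and 9.43 in STZ, and 9.40 and 9.58 in saline. The groups overlapped, with STZ replicate 1 lowest. Its difference between STZ and saline was -0.33 ± 0.24 (limma adjusted p = 0.599).

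Psmb6 stood at 12.34, 12.37 and 12.31 in STZ with leptin, at 11.76, 12.40 and 12.31 in STZ, and at 12.26 and 12.31 in saline. Here too STZ replicate 1 was the lowest array and the remaining 7 lay close together. Psmb7 stood at 12.39, 12.38 and 12.77 in STZ with leptin, at 12.34, 12.25 and 12.64 in STZ, and at 12.59 and 12.61 in saline. Differences of STZ from saline were -0.13 ± 0.19 for Psmb6 and -0.19 ± 0.18 for Psmb7, and those of STZ with leptin from STZ were 0.18 and 0.11.

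Each interferon-induced subunit was set against the subunit it replaces by taking the difference of their log2 levels on each array, with the saline mean as 0. Psmb8 minus Psmb5 was 1.13, 0.81 and 1.26 in STZ with leptin, 3.55, 3.70 and 3.52 in STZ, and 0.12 and -0.12 in saline. On this scale STZ replicate 1 lay among the other STZ arrays. The shift of this pair was 3.59 between STZ and saline and -2.52 between STZ with leptin and STZ, and the 3 groups did not overlap.

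For Psmb9 minus Psmb6 the values were 2.04, 1.03 and 1.80 in STZ with leptin, 4.09, 4.56 and 4.42 in STZ, and -0.04 and 0.04 in saline. This pair also separated the 3 groups without overlap. Psmb10 minus Psmb7 was 0.65, 0.73 and -0.04 in STZ with leptin, 0.79, 1.85 and 1.11 in STZ, and -0.03 and 0.03 in saline. Its leptin and saline arrays overlapped. In exact two-sided permutation tests the p was 0.1 for 8 of the 9 comparisons of pairs and 0.4 for Psmb10 minus Psmb7 in STZ with leptin against saline (0.112 and 0.4 after Benjamini-Hochberg adjustment over the 9). With 3 arrays against 2 or 3, 0.1 is the smallest p these tests can give.

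**Figure D2:**
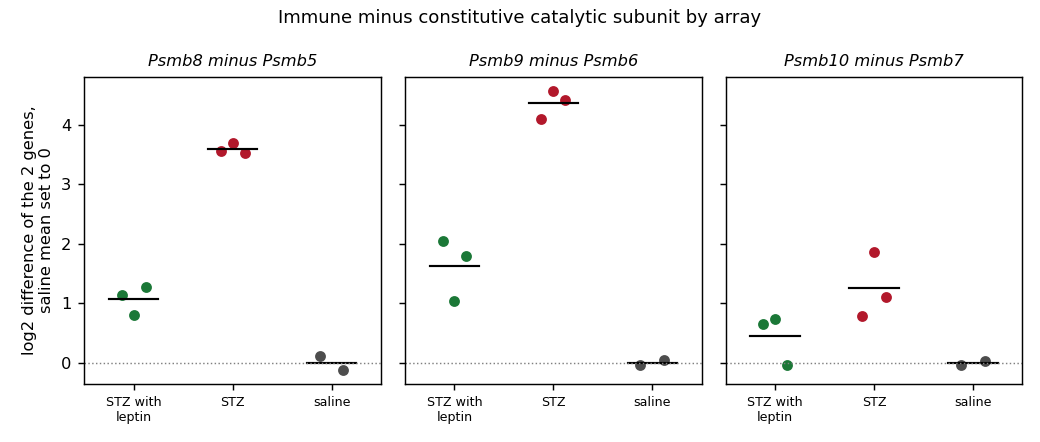
Difference in log2 intensity between each interferon-induced catalytic subunit and the constitutive subunit it replaces, by array, with the saline mean set to 0 (points are arrays, bars are group means). For Psmb8 minus Psmb5 the STZ arrays sit between 3.52 and 3.70 and the leptin arrays between 0.81 and 1.26.

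The windows of Psmb5 and Psmb6 are shown beside those of their replacements. They are chr14:54617946-54618245 on the minus strand and chr11:70525107-70525406 on the plus strand. Capitals mark matches to the antioxidant response element TGACNNNGC, a sequence bound by the Nrf family of factors, among which Nfe2l1 is known to drive constitutive proteasome genes.
Psmb5: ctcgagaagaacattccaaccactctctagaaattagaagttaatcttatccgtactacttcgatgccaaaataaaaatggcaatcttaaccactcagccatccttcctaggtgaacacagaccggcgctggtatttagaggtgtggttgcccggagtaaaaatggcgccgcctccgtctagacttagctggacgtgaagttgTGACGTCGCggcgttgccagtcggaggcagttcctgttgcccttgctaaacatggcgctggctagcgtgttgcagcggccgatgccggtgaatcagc
Psmb6: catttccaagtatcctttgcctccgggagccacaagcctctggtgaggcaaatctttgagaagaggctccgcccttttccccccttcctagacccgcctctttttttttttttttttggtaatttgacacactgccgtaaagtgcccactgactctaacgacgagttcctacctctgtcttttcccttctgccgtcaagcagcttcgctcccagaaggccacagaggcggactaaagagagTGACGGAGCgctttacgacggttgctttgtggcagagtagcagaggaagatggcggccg

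All 3 motifs were searched on both strands of 32841 RefSeq windows of 300 bases, and 37 of the 43 members had a window. The interferon-stimulated response element was found in 3.44 percent of all windows, in Psme1 among the 5 interferon-induced genes, and in Psmb3, Psmd4 and Psmd9 among 30 other members. TTCNNNGAA was found in 8.3 percent of all windows, in Psmb8, and in Psmd2 and Psmg1. TGACNNNGC was found in 12.4 percent of all windows, in none of the 5 interferon-induced genes and in 6 of the 30 others (Psmb5, Psmb6, Psmc6, Psmd9, Psmd12 and Psme4). No printed window held more than 1 match. A match says only that these letters occur there.

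No gene of the remaining parts of the complex passed. Of the 36 proteasome genes other than the 5 interferon-induced ones, none passed in either direction in any of the 3 comparisons. Over all genes, 0.271 percent were lower in STZ than in saline and 2.06 percent higher in STZ with leptin than in STZ. Over these genes and the 2 matched by name, the median difference was -0.09 between STZ and saline, 0.07 between leptin-infused STZ and STZ, and -0.02 between leptin-infused STZ and saline. The median within-group SD of the 36 genes, without the 2 matched by name, was 0.173, between 0.07 for Psmb4 and 0.359 for Psmd2.

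In the 20S core, the 5 measured alpha subunits, which gate entry to the barrel, ranged from -0.16 (Psma3) to 0.08 (Psma4) in STZ minus saline, and from -0.06 (Psma4) to 0.17 (Psma2) in STZ with leptin minus STZ. The 4 non-catalytic beta subunits ranged from -0.24 (Psmb1) to 0.02 (Psmb2) and from 0.03 (Psmb4) to 0.39 (Psmb2) in the same comparisons. STZ replicate 1 was the extreme array for many genes of the core, and less so for those of the cap. Of the 12 core genes other than the interferon-induced ones, 9 had their lowest value of all 8 arrays there, with a median 0.35 below the saline mean. Of the 16 cap genes, 6 had their highest value on the same array, with a median of 0.09 above the saline mean. Cap medians of the other arrays ran from -0.14 (STZ replicate 2) to 0.14 (saline replicate 4). Over all genes the median of STZ replicate 1 from the saline mean was -0.02. How many of all genes had their lowest or highest value on that array was not counted. Whether these counts are particular to the proteasome therefore cannot be told.

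In the 19S cap, the 6 ATPases ranged from -0.22 (Psmc6) to 0.12 (Psmc4) in STZ minus saline, and from -0.27 (Psmc1) to 0.42 (Psmc6) in STZ with leptin minus STZ. Psmc6 was close to the detection limit and was detected on 7 of 8 arrays. The 10 measured non-ATPase subunits, which include the ubiquitin receptor Psmd4 and the deubiquitinase Psmd14, ranged from -0.54 (Psmd6) to 0.15 (Psmd13) and from -0.22 (Psmd11) to 0.41 (Psmd6). The cap's 3 assembly chaperones, Psmd5, Psmd9 and Psmd10, lay between -0.19 and -0.02 in STZ minus saline and between 0.01 and 0.19 in STZ with leptin minus STZ.

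Psmd6, a structural subunit of the cap, had probes with different calls. Its brighter probe had 7.20, 7.25 and 7.19 in STZ with leptin, 6.62, 6.48 and 7.30 in STZ, and 7.23 and 7.46 in saline, and did not pass (STZ minus saline -0.54 ± 0.23, limma adjusted p = 0.326). STZ replicate 3 lay with the leptin and saline arrays. Without that array the difference was -0.79 and passed (limma adjusted p = 0.0426). The dimmer probe was detected on all leptin and saline arrays and on none of the 3 STZ arrays. It was at least 1.66-fold higher in STZ with leptin than in STZ (limma adjusted p = 0.00783) and at least 1.86-fold lower in STZ than in saline (limma adjusted p = 0.00496). A lower bound sets undetected arrays at the dimmest normalized level of any detected probe, or at the probe's own value where that was higher. Of 17 further probes of 15 members, those of Psmb10 and Psme1 passed as higher in STZ than in saline and this one as lower. The probes of Psmd11 also differed, in sign. In STZ with leptin minus STZ the brighter one was at -0.22 and the dimmer one at 0.40, and neither passed.

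The 20S assembly chaperones Psmg1, Psmg2 and Psmg3, which pair and align the alpha subunits, ranged from -0.40 (Psmg1) to -0.07 (Psmg2) in STZ minus saline, and from -0.03 (Psmg2) to 0.29 (Psmg1) in STZ with leptin minus STZ. The activators that interferon does not induce, Psme3 (PA28 gamma, a nuclear protein) and Psme4 (PA200), differed by -0.04 and 0.36 in STZ minus saline and by -0.13 and -0.10 in STZ with leptin minus STZ.

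**Figure D3:**
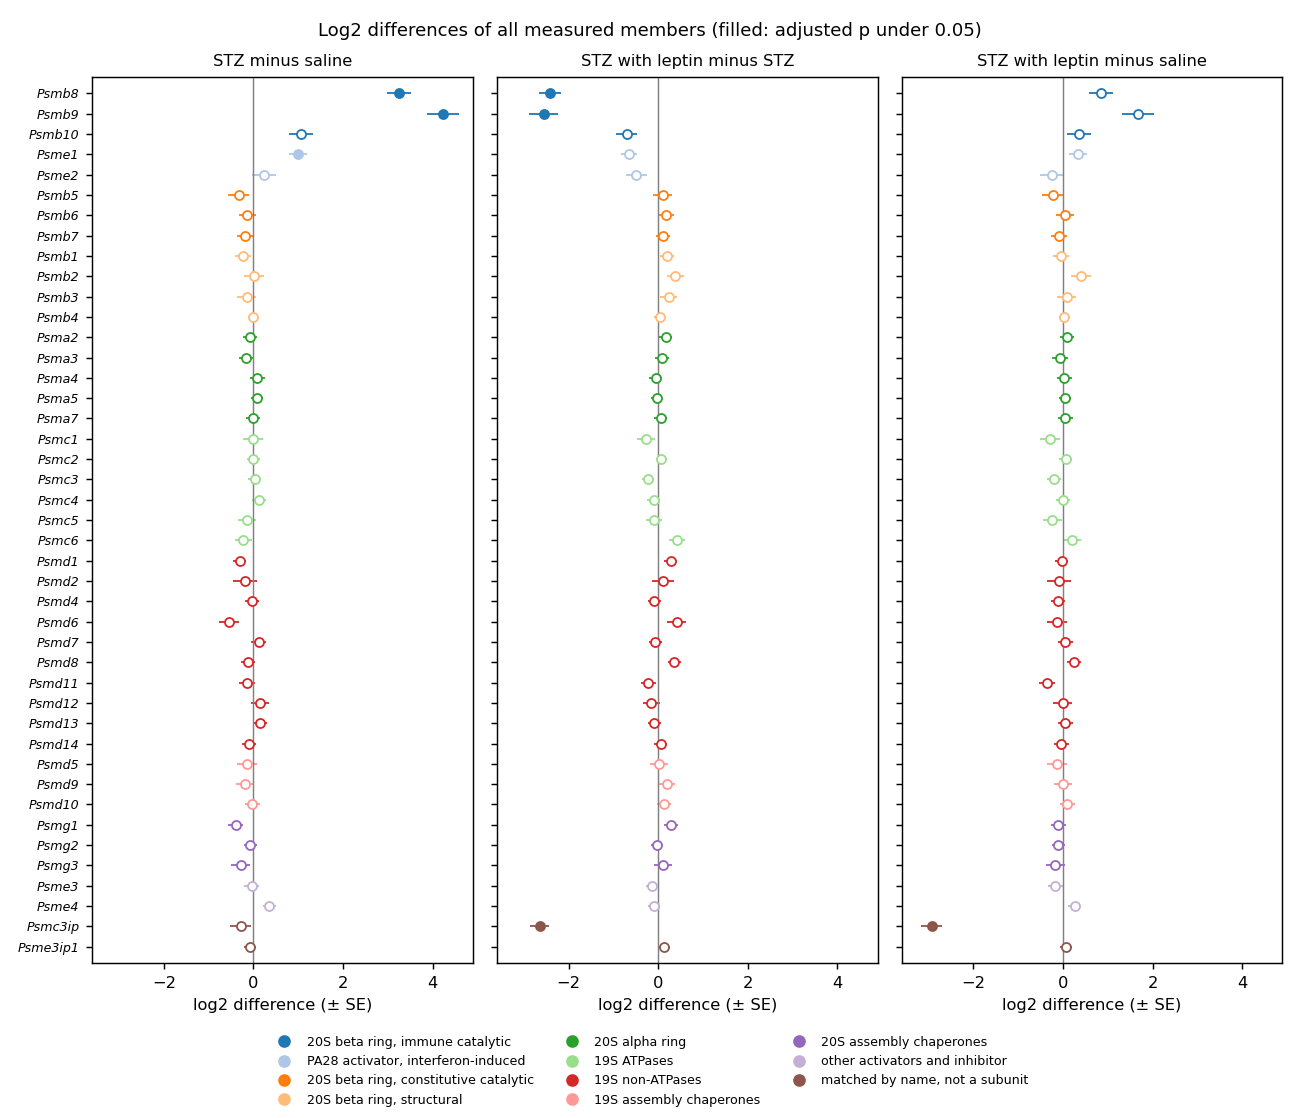
Log2 differences with standard errors for the 43 measured genes, ordered and coloured by role, with 1 panel for each of the 3 comparisons of groups. Filled points passed an adjusted p under 0.05. In STZ minus saline Psmb9 lies at 4.23 and Psmb8 at 3.26, while the genes from Psmb5 down to Psme3ip1 lie between -0.54 and 0.36.

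Psmc3ip changed in the leptin arrays, and it is no proteasome gene. It encodes a cofactor of meiotic recombination (Hop2) named for its binding to Psmc3. Its level was 7.93, 7.73 and 7.74 in STZ with leptin, 9.94, 10.74 and 10.67 in STZ, and 10.68 and 10.78 in saline. The leptin arrays were below all others, and STZ replicate 1 was the lowest of the rest. With leptin, Psmc3ip fell by 2.64 ± 0.21 log2 units against STZ, or 6.25-fold (limma adjusted p = 0.000175). Against saline it fell by 2.93 ± 0.23, or 7.59-fold (limma adjusted p = 0.000292), a comparison in which 0.402 percent of all genes were lower. STZ minus saline was -0.28 (limma adjusted p = 0.659). Psme3ip1 did not pass in any comparison, with differences of -0.07, 0.13 and 0.06.

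Around the proteasome, 11 of 20 listed partners were measured, among them the core's maturation factor Pomp, the cap-bound deubiquitinases Usp14 and Uchl5, the unfoldase Vcp and the transcription factor Nfe2l1. None passed in any comparison, and the medians were -0.14, 0.15 and -0.07. Values for STZ minus saline ran between -0.46 (Ecpas) and 0.14 (Vcp).

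Of 12 listed genes of ubiquitin and ubiquitin-like conjugation and removal, 5 were measured, all of them interferon-induced, and all 5 rose in STZ against saline, while 4 of the 5 fell with leptin against STZ. Isg15, a ubiquitin-like modifier, was 3.45 ± 0.70 higher in STZ than in saline (limma adjusted p = 0.026), and its difference of STZ with leptin from STZ (-1.72) did not pass. Its level was 8.95 in STZ replicate 1, against 11.41 and 10.44 in STZ replicates 2 and 3. In fits without 1 array, an alternative chosen after seeing the data, the rise of Isg15 in STZ against saline did not pass without STZ replicate 2 (2.89, limma adjusted p = 0.0644), and Isg15 fell by 2.40 with leptin against STZ without STZ replicate 1 (limma adjusted p = 0.0371). Uba7, which activates Isg15, was 2.94 ± 0.20 higher in STZ than in saline and fell by 1.87 with leptin against STZ. Ube2l6, which conjugates it, was 2.50 ± 0.32 higher and fell by 2.24, and Usp18, which removes it, was 3.33 ± 0.41 higher and fell by 1.73. The fall of Usp18 did not pass without STZ replicate 2 (-1.52, limma adjusted p = 0.0955). Ubd (FAT10), a modifier that sends proteins to the proteasome directly, was undetected in saline and at least 12.1-fold higher in STZ (limma adjusted p = 0.00588). Its level in STZ replicate 1 was 7.38, against 10.07 and 8.93 in STZ replicates 2 and 3, and its rise passed without STZ replicate 1 and without STZ replicate 2. Uba7 was also higher with leptin than in saline (1.07, limma adjusted p = 0.0302).

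Downstream of the proteasome, 7 of 10 measured genes of MHC class I peptide processing and loading rose in STZ against saline, 6 fell in STZ with leptin against STZ, and 2 were higher with leptin than in saline. Over all genes, 4.36, 3.71 and 1.72 percent passed in these directions, shares that stand beside the other lists and the neighbours too. The peptide transporter subunit Tap2 was 2.62 ± 0.21 higher in STZ than in saline and fell by 2.24 with leptin against STZ. Its partner Tap1 was undetected in saline and at least 6.85-fold higher in STZ, and the class I transactivator Nlrc5, also undetected in saline, was at least 3.98-fold higher. Nlrc5 was detected on 3 STZ arrays and 1 leptin array, so only the STZ arrays brought it past the detection filter. That filter favoured its place in the counts of rising and falling genes. The loading factors Tapbpl (1.83 ± 0.14) and Tapbp (1.36 ± 0.14) and the class I chains H2-D1 (2.72 ± 0.35) and B2m (2.45 ± 0.25) were higher in STZ than in saline. Those 2 that passed with leptin against saline were B2m (1.58, limma adjusted p = 0.0128) and Tapbpl (0.77, limma adjusted p = 0.022). B2m also fell with leptin against STZ without STZ replicate 1 (-1.10, limma adjusted p = 0.012), and did not pass with it. The general chaperones Calr and Pdia3 did not pass, at -0.12 and 0.25 in STZ minus saline, nor did H2-K1 (0.87).

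Of 9 measured genes of the interferon signal that is known to induce the immune subunits, Irf1, Irf8, Irf9 and Stat2 rose in STZ against saline, and these 4 fell with leptin against STZ. Irf1, a transcription factor known to drive Psmb9 and Tap1, stood at 10.11, 9.55 and 10.12 in STZ with leptin, at 12.67, 12.92 and 12.61 in STZ, and at 9.12 and 9.19 in saline. The 3 groups did not overlap. Irf1 was 3.58 ± 0.20 higher in STZ than in saline, with Irf8 at 2.47 ± 0.19, Irf9 at 2.10 ± 0.15 and Stat2 at 1.25 ± 0.23. With leptin against saline 2 of the 9 were higher, Irf8 by 0.95 (limma adjusted p = 0.042) and Irf9 by 0.80 (limma adjusted p = 0.0323). Irf8 did not pass in that comparison without STZ replicate 2 (limma adjusted p = 0.0567). Both genes still passed without STZ replicate 1, but no longer both when any other STZ array or any leptin array was left out. Ifng itself was undetected in saline, and its change did not pass (limma adjusted p = 0.112 for STZ against saline), but it passed without STZ replicate 1 (limma adjusted p = 0.0285), and so did its fall with leptin against STZ (limma adjusted p = 0.0391). The receptor genes Ifngr1 and Ifngr2 and the kinases Jak1 and Jak2 did not pass.

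**Figure D4:**
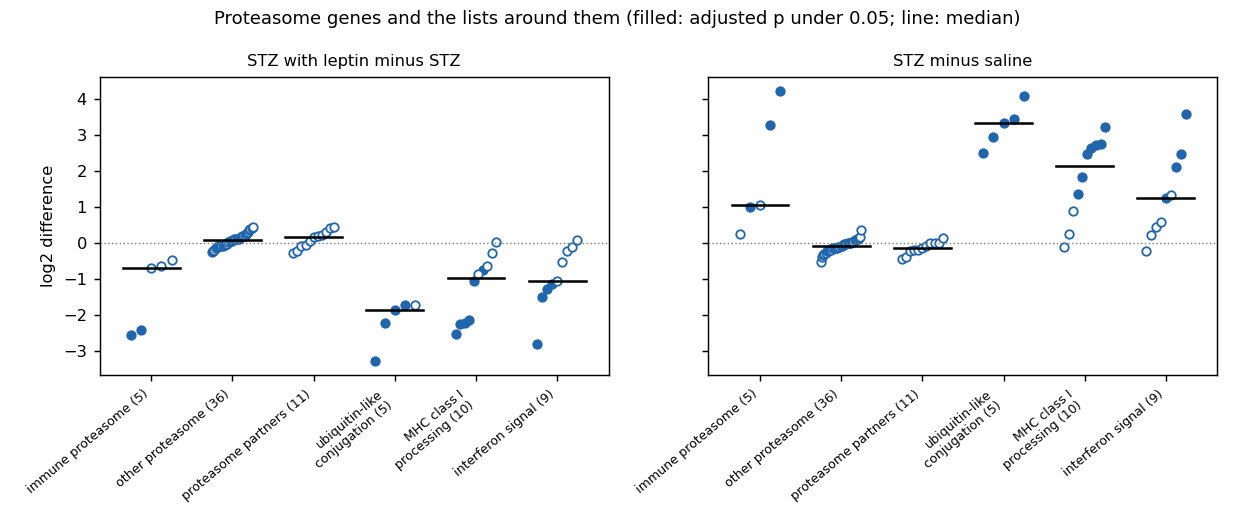
Log2 differences of the interferon-induced and other proteasome genes and of the lists around them, for STZ with leptin minus STZ (left) and STZ minus saline (right). Each point is a gene, filled where adjusted p was under 0.05, and lines are medians. The median for STZ minus saline is 1.06 for the interferon-induced proteasome genes, -0.14 for the proteasome partners and 2.14 for MHC class I processing. Values of Tap1, Nlrc5, Ubd and Ifng are fitted values, since these genes were undetected in saline.

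The interferon-induced genes lie in 3 places of the genome. Psmb9, Tap1, Psmb8 and Tap2 follow each other on chromosome 17, inside the MHC. Within 3 places of the 5 genes, 15 of 20 neighbours were measured, of which 5 rose in STZ against saline and 5 fell in STZ with leptin against STZ. On chromosome 17 these were Tap1, Tap2 and the MHC class II loading genes H2-DMa (2.55 ± 0.28 in STZ minus saline) and H2-DMb1 (2.97 ± 0.33), while H2-Ob (undetected in saline) did not pass. On chromosome 14, Irf9 rose, 2 places from Psme2, but Emc9 (-0.41) and Rnf31 (0.33), which lie between or beside Psme1 and Psme2, did not pass, nor did Dcaf11 and Rec8. On chromosome 8 none of the 5 measured neighbours of Psmb10 (Nrn1l, Pskh1, Ctrl, Lcat and Slc12a4) passed, with differences between -0.16 and 0.39.

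**Figure D5:**
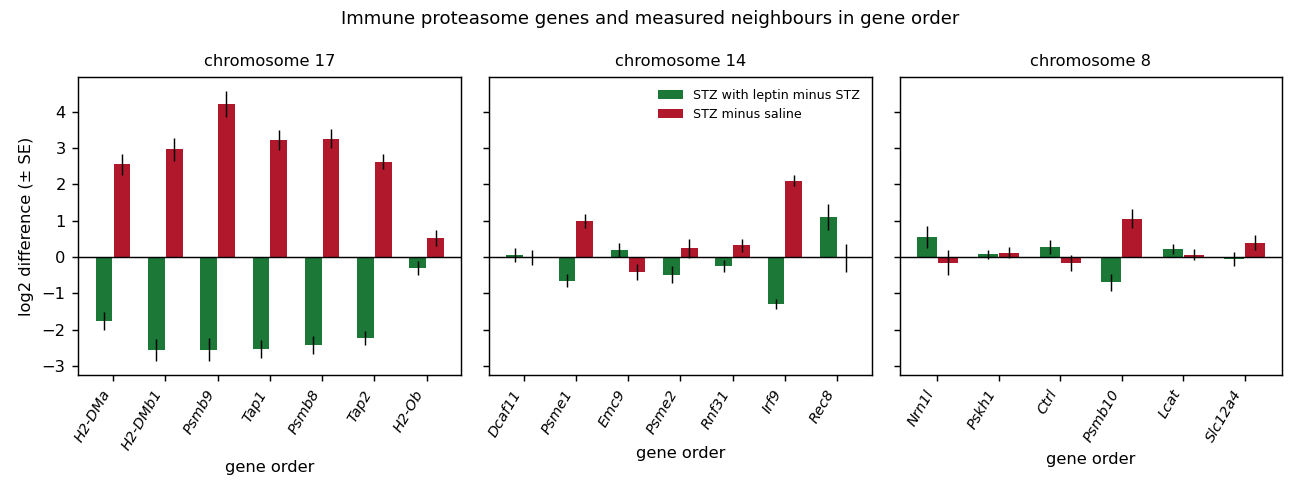
Log2 differences with standard errors of the interferon-induced proteasome genes and their measured neighbours in RefSeq gene order, for STZ with leptin minus STZ (green) and STZ minus saline (red). From H2-DMa to Tap2 on chromosome 17 the red bars lie between 2.55 and 4.23, and on chromosome 8 Psmb10 (1.06) stands between Ctrl (-0.16) and Lcat (0.07). Bars of Tap1, H2-Ob and Rec8 are fitted values of probes undetected in at least 1 group.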

How the data were processed

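The authors deposited 1 linear, uncorrected intensity for each probe on each of 8 arrays and, per the file headers, a detection p-value beside it. The authors' processed table holds log2 values with the same set of values in every column, as after quantile normalization. The software that made it is not stated in the labels, and it served as an alternative. RNA (300 ng per sample) had been amplified to biotinylated cRNA, per the labels' protocols.

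Background correction and quantile normalization used neqc (limma 3.58.1, R 4.3.3, offset 16, which understates folds of dim probes). Of 25697 probes, 15494 detected at p under 0.05 on 2 or more arrays were kept. Using lmFit and eBayes, 3 group means were estimated over all 8 arrays, with p-values adjusted by Benjamini-Hochberg over all kept probes. The fit was tested on simulated data. Symbols came from the platform's probe table, which gave 1 symbol to 23978 probes and none to 1719. RefSeq (GRCm38.p6) supplied gene order and promoter windows. Named genes were the 5 interferon-induced genes and Psmb5, Psmb6 and Psmb7, every other member that passed, the lowest and highest of each role class, members of other lists that passed (at most 6 a list), and neighbours within 3 places. Members that completed a count, and the further probes of Psmb10, Psme1, Psmd6 and Psmd11, were named after their values were seen. Members and lists were chosen with earlier results of these data known. Alternatives were the authors' processed values, other background correction, centring and detection filters, array weights, only the groups compared, the mean of all kept probes, a replicate block and leaving out each array, which for genes outside the proteasome was chosen after seeing the data.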

Additional observations from a re-analysis of the deposited data

How the results depend on the processing

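Psmb8 and Psmb9 kept their direction and their call in STZ against saline and in STZ with leptin against STZ under all 17 alternatives each, with STZ minus saline between 2.23 and 3.56 for Psmb8 and between 3.65 and 4.58 for Psmb9. Leaving out 1 array at a time gave 2 to 5 passing members in STZ against saline (2 to 5 of the interferon-induced genes), 3 to 6 in STZ with leptin against STZ (2 to 5) and 1 to 3 in STZ with leptin against saline (0 to 2). The highest of these counts all came without STZ replicate 1, where 1032, 1234 and 426 probes passed (664, 870 and 314 with all arrays). The same fits for the other lists, chosen after seeing the data, gave 3 to 5 passing genes of ubiquitin-like conjugation in STZ against saline (3 without either saline array), 2 to 5 with leptin against STZ (2 without STZ replicate 3) and 0 to 2 with leptin against saline. In STZ with leptin against saline they gave 0 to 2 genes of the interferon signal, 0 to 2 of MHC class I processing and 0 to 1 neighbours, each 0 without either saline array. Without one or other saline array Isg15, Ubd and Stat2 did not pass in STZ against saline. Array weights gave 5, 6 (5 of them interferon-induced) and 3 (2 of them interferon-induced) passing members. With these weights more of all 15494 probes passed too, at 1659, 1859 and 714, against 664, 870 and 314 without them. The mean of all kept probes of a gene gave 5 passing members in STZ against saline, with Psmb10 higher and Psmd6 lower (-0.77, limma adjusted p = 0.0242). The median of the members other than the interferon-induced ones was -0.24, 0.16 and -0.090 in the 3 comparisons after centring each array on its median, and -0.044 in leptin-infused STZ against STZ with array weights. That centring moved the median of all kept probes in STZ minus saline to -0.19, against -0.09 without it. Psme1 lost its call in STZ against saline after centring (0.79, limma adjusted p = 0.0903) and with only the groups compared (limma adjusted p = 0.0749), and Psmb10 gained one in the authors' processed values (limma adjusted p = 0.0497). The cause was not tested. By the replicate numbers in the descriptions, deviations from the group mean correlated between -0.218 and 0.092 for same-numbered arrays of different groups. For differently numbered ones they correlated between -0.315 and 0.315. Whether the numbers pair the arrays could not be told, since groups hold 2 or 3 arrays and STZ replicates 1 and 3 share a number. With the replicate block 2 members, Psmb8 and Psmb9, passed in STZ against saline, and Psme1 did not (1.10, limma adjusted p = 0.137). Small groups limit all of this: a group of 2 or 3 arrays is too small for an outlier test, and probes near background give only bounds.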
